A study of Mus musculus with 16 samples.

Results

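The 42 genes described here make and supply the DNA replication machinery. They were taken by name from the array annotation: licensing factors and the MCM helicase (Cdc6, Cdt1, Gmnn and Mcm2 to Mcm7), helicase activators and further MCM proteins (Mcm8, Mcm10, Dbf4 and Gins1 to Gins4), polymerases and primase (Pola1, Pola2, Prim1, Prim2, Pold1, Pold2, Pold3, Pole and Pole2), the sliding clamp and its loader (Pcna and Rfc1 to Rfc5), proteins that bind single-stranded DNA or finish Okazaki fragments (Rpa1, Rpa2, Rpa3, Fen1 and Lig1), enzymes of nucleotide supply (Rrm1, Rrm2, Tyms and Tk1) and the chromatin assembly factor (Chaf1a and Chaf1b). All 42 of the 42 names were found among the 30214 gene names on the array, and all 42 were well above background on all 16 arrays. The 16 arrays hold RNA of AML12 cells, a non-tumourigenic mouse hepatocyte line, in which a doxycycline-inducible promoter drove a scramble shRNA or one against eIF6. All groups received doxycycline, for 48 h by the study's methods, and then insulin for 1 h, so that no group shows these genes without doxycycline or without insulin. The insulin dose is 100 nM in the methods and in one label, and another label gives 100 mM. RNA of each culture was separated on a sucrose gradient into a subpolysomal pool, which holds free mRNA, ribosomal subunits and single ribosomes, and a polysomal pool, which holds mRNA carrying several ribosomes. The 4 groups are therefore scramble subpolysomal, scramble polysomal, eIF6 shRNA subpolysomal and eIF6 shRNA polysomal RNA, with 4 arrays each.

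eIF6 binds the large ribosomal subunit and keeps it from joining the small subunit until it is released. A cell licenses its replication origins in G1, when Cdc6 and Cdt1 load the MCM helicase onto DNA, and geminin (Gmnn) blocks a further round of loading. In S phase the Dbf4-dependent kinase and the GINS complex switch the helicase on, primase and DNA polymerase alpha lay down primers, and polymerases delta and epsilon copy the strands with PCNA as their clamp. The genes of this machinery are classic targets of E2F transcription factors, and their mRNAs are commonly read as a sign of cells preparing for or passing through S phase. The clustered histone mRNAs, which end in a stem-loop in place of a poly(A) tail, rise in the same phase.

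The letters of the E2F-type motif were looked for in the promoters, to show where the named genes share the sequence by which they are usually grouped. The motif was taken as TTTCCCGC, TTTCGCGC, TTTGCCGC or TTTGGCGC on either strand, in the 250 bases before each gene start of RefSeq on GRCm38.p6. A promoter was found for 34 of the 42 genes, and 7 of these (20.6%) held at least 1 copy, against 583 of 27025 genes (2.16%) in the whole table. The stretches below run 5′ to 3′ on the strand of the gene and stop at the latest before the start site, and capitals mark the motif. In Mcm5 a pair of motif copies overlaps, and Mcm6 has 3 copies in its 250 bases, of which the one nearest the start is shown.
Cdc6: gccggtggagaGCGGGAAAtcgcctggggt
Mcm5: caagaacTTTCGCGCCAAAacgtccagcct
Mcm6: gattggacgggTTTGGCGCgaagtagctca
Mcm7: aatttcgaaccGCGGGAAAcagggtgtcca
Gins3: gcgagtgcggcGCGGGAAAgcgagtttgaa
Pola1: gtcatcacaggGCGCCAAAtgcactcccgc
Rfc3: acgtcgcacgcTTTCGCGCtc
The copy in Mcm6 starts 47 bases before the gene start, that in Gins3 41 bases and that in Rfc3 10 bases. In Mcm5 the overlapping copies start 153 and 149 bases before it. The copies shown for Cdc6 and Pola1 start 138 bases and that for Mcm7 165 bases before the start. These stretches lie at chr11:98908002-98908031 (Cdc6, plus strand), chr8:75109349-75109378 (Mcm5, plus strand), chr1:128359734-128359763 (Mcm6, minus strand), chr5:138172030-138172059 (Mcm7, minus strand), chr8:95633507-95633536 (Gins3, plus strand), chrX:93632275-93632304 (Pola1, minus strand) and chr5:151651209-151651229 (Rfc3, minus strand) of GRCm38.p6. The median polysomal change of the 7 genes with a copy was −0.06 and that of the other 27 with a promoter was −0.14 on the log2 scale.

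Between 20196 and 24960 probes were well above background on an array, and no spot was saturated. The shRNA target behaved as labelled on polysomes: Eif6 lay between 12.94 and 12.96 (log2 intensity) on the scramble polysomal arrays and between 11.81 and 12.00 on the eIF6 shRNA ones, a change of −1.05 ± 0.08 (SE; adjusted p = 1.46e-07, limma), while its subpolysomal change was 0.02 ± 0.08 (adjusted p = 0.916). Of 14 hepatocyte markers, 11 were above background on all 16 arrays, Krt8, Krt18, Hnf4a and Trf among them, while Alb was so on 7, Apoa1 on 3 and Fgb on 0. Mesenchymal markers moved with the shRNA: 8 of 9 were called lower on polysomes and 7 of 9 in subpolysomal RNA, and their summed level (log2 of the summed intensities) lay between 17.39 and 18.12 on the scramble polysomal arrays and between 14.82 and 15.48 on the eIF6 shRNA ones. In subpolysomal RNA it lay between 17.07 and 17.16 with the scramble and between 15.92 and 16.21 with the eIF6 shRNA. Of 6 leukocyte markers, Cd14, Cd68 and Csf1r were above background on all 16 arrays, Emr1 on 12, Ptprc on 8 and Lyz2 on 0, and 1, Csf1r, was called lower in both fractions (−1.67 on polysomes). Their summed level lay between 12.05 and 12.46 on the scramble polysomal arrays and between 12.12 and 12.34 on the eIF6 shRNA ones, and in subpolysomal RNA between 11.87 and 11.98 and between 11.91 and 12.13. Of 5 endothelial markers, Kdr and Pecam1 were above background on all 16 arrays, Vwf on 14 and Cdh5 and Tek on 0, and 1, Vwf, was called higher in both fractions. Their summed level ranged from 9.45 to 9.97 and from 9.36 to 9.82 on polysomes, and from 10.89 to 11.79 and from 11.29 to 11.84 in subpolysomal RNA. The part of these marker differences in the results on the replication genes was not tested. The polysomal arrays numbered 4 of both shRNAs stood apart for the replication genes, so several results are also given without them.

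On polysomes, 9 of the 42 replication mRNAs were called lower in eIF6 shRNA cells and 0 higher, and 7 of the 9 were primase and polymerase subunits or helicase activators. The median polysomal change (eIF6 shRNA minus scramble) of the 42 genes was −0.16 on the log2 scale, beside 0.02 for all 19367 genes tested, and 34 of the 42 lay below 0. By limma with Benjamini-Hochberg adjustment over all genes and a threshold of 0.05, the genes called lower were 21.4% of the 42. Of all genes tested, 10.7% were called lower and 11.1% higher. At an unadjusted p under 0.05 the counts were 13 lower and 0 higher of the 42, beside 14.9% and 16.7% of all genes. In bulk RNA, fewer cells in S phase and less of these mRNAs per cell cannot be told apart. Within the 4 slides, each of which held 1 array of every group, the median change of the 42 genes was −0.17, 0.14, −0.49 and −0.06, so that it was not below 0 on every slide. The polysomal array numbered 4 lay on slide 3 for the scramble and on slide 2 for the eIF6 shRNA. Without the polysomal arrays numbered 4, 8 genes were called lower and 0 higher, with a median of −0.15, beside 11.5% and 12.7% of all genes and a median of 0.02. With scaling to spike-in probes in place of quantile normalization, which shifted the median of all genes to −0.48, only Prim2 was called lower and the median of the 42 genes was −0.63, with 5.41% of all genes called lower and 0.516% higher.

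**Figure D1:**
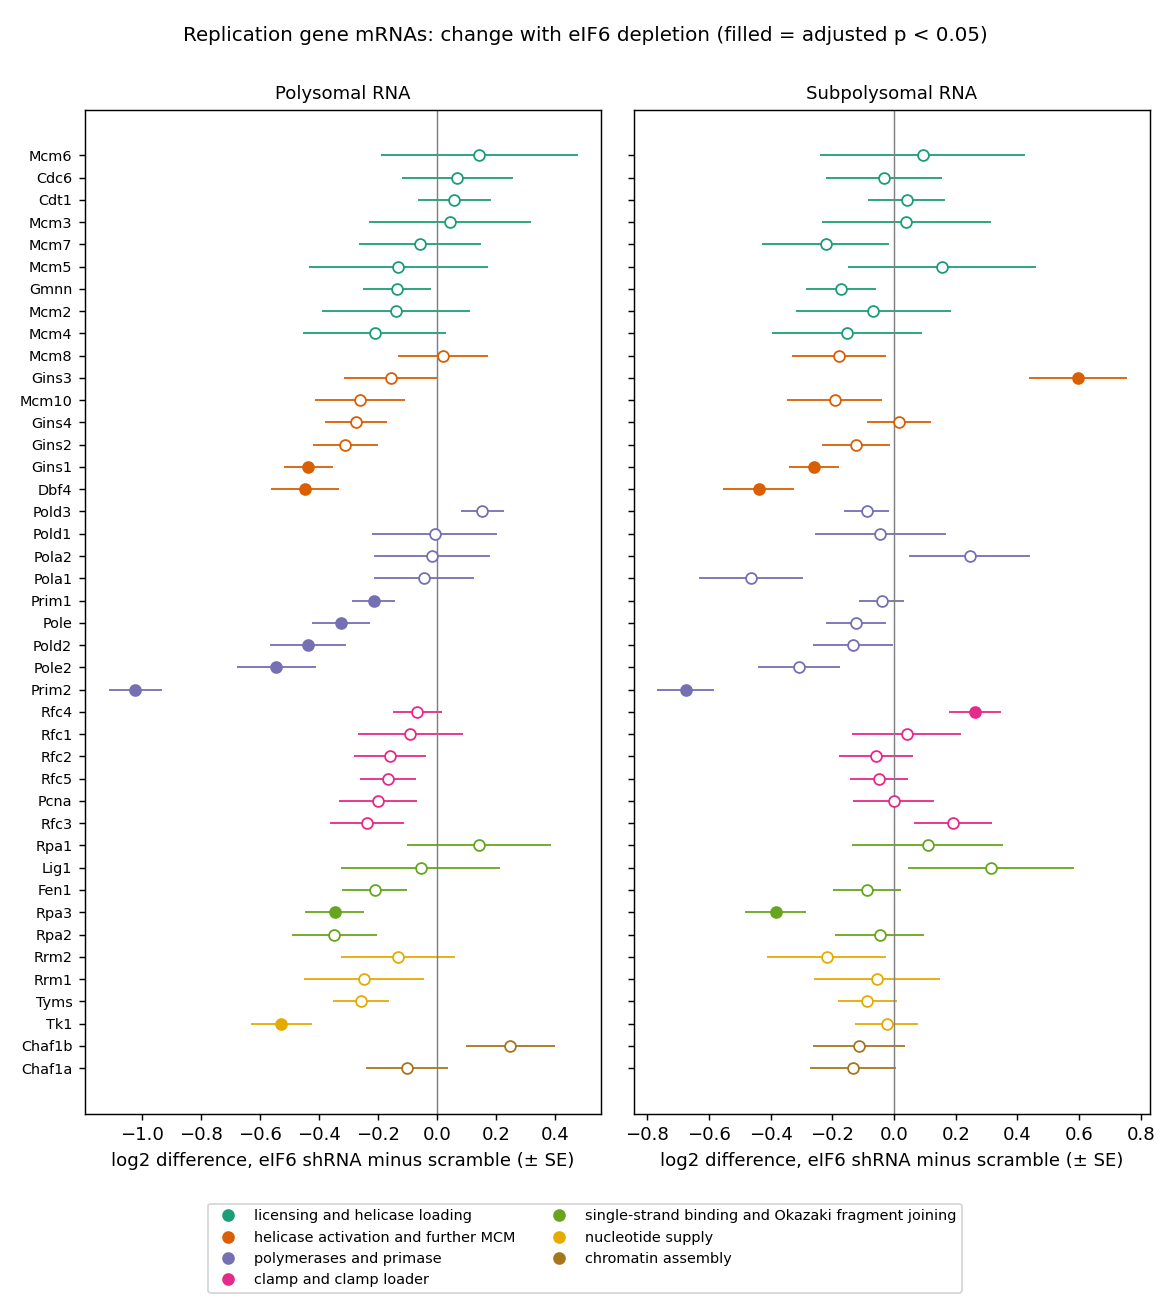
Log2 difference between eIF6 shRNA and scramble cells for each of the 42 replication genes in polysomal (left) and subpolysomal (right) RNA, by role, as the limma estimate ± SE with 4 arrays per group. Filled circles passed an adjusted p of 0.05: 9 genes on polysomes, all lower, and 6 in subpolysomal RNA, 4 lower and 2 higher.

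Primase and polymerases held 5 of the 9 genes called lower. Prim2, the large primase subunit, had the largest decrease in the main fit. Its log2 intensities on the 4 scramble polysomal arrays were 5.59, 5.56, 5.55 and 5.80, and on the 4 eIF6 shRNA polysomal arrays 4.58, 4.56, 4.61 and 4.67. The groups did not overlap, and the change was −1.02 ± 0.09 (SE), a 2.03-fold decrease (adjusted p = 9.28e-07). In subpolysomal RNA Prim2 read 5.28, 5.44, 5.22 and 5.30 with the scramble and 4.48, 4.65, 4.86 and 4.55 with the eIF6 shRNA, again without overlap, a change of −0.68 ± 0.09 (adjusted p = 7.57e-05). Prim2 was dim, and its 2 probes, both on chromosome 1 of mm9, differed in size: the one at chr1:33510733-33510792 changed by −1.51 on polysomes and −0.78 in subpolysomal RNA, and the one at chr1:33535912-33535971 by −0.53 and −0.57. The size of its change depended on the background correction. With normexp (offset 50) Prim2 was still called in both fractions, but at −0.48 on polysomes and −0.24 in subpolysomal RNA. Tk1 then had the larger polysomal decrease, −0.52. Prim1, the catalytic primase subunit, was called lower on polysomes at −0.22 ± 0.07 (adjusted p = 0.0488), just inside the threshold, and the call was lost with the slide as a block (adjusted p = 0.0564) and under 12 other alternatives of 20.

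Pole2, the second subunit of the leading strand polymerase epsilon, read 8.74, 8.51, 8.43 and 8.96 on the scramble polysomal arrays and 8.09, 8.02, 8.01 and 8.34 on the eIF6 shRNA ones. No eIF6 shRNA array reached the lowest scramble array, and the change was −0.55 ± 0.13 (adjusted p = 0.00799). In subpolysomal RNA its groups overlapped, from 8.20 to 8.33 against 7.72 to 8.24, and −0.31 ± 0.13 did not pass (adjusted p = 0.113). Pole, the catalytic subunit, changed by −0.33 ± 0.10 on polysomes (adjusted p = 0.0257). Both its kept probes were lower on polysomes (−0.27 and −0.39), but they differed in sign in subpolysomal RNA (−0.35 and 0.10). Pold2, an accessory subunit of the lagging strand polymerase delta, changed by −0.44 ± 0.13 on polysomes (adjusted p = 0.0242), but without the polysomal arrays numbered 4 it gave −0.38 with an adjusted p of 0.0672, and Pole gave −0.29 with 0.0844. The catalytic subunits of the other polymerases did not pass: Pold1 gave −0.01 ± 0.21 and Pola1 −0.05 ± 0.17 on polysomes. Pola2 gave −0.02 ± 0.20, and Pold3 lay above 0, at 0.15 ± 0.07 (adjusted p = 0.161).

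Among the helicase activators, Dbf4 and Gins1 were called lower in both fractions. Dbf4, the regulatory subunit of the kinase that fires origins, read 9.61, 9.50, 9.45 and 9.11 on the scramble polysomal arrays and 9.09, 9.07, 8.82 and 8.90 on the eIF6 shRNA ones. The lowest scramble array, number 4, was close to the highest eIF6 shRNA array. Dbf4 changed by −0.45 ± 0.12 on polysomes (adjusted p = 0.0103) and by −0.44 ± 0.12 in subpolysomal RNA (adjusted p = 0.0119), where the arrays read 9.55, 9.53, 9.43 and 9.18 against 9.07, 8.95, 8.91 and 9.01. Gins1, a subunit of the GINS complex that joins MCM in the active helicase, read 11.46, 11.49, 11.48 and 11.30 on the scramble polysomal arrays and 11.15, 11.07, 10.86 and 10.90 on the eIF6 shRNA ones. Its change was −0.44 ± 0.08 on polysomes (adjusted p = 0.00111) and −0.26 ± 0.08 in subpolysomal RNA (adjusted p = 0.0328), where 10.99, 10.91, 10.84 and 10.86 stood against 10.72, 10.63, 10.67 and 10.55. In neither fraction did the groups of Dbf4 or Gins1 overlap. The subpolysomal call of Gins1 was lost under 8 of 20 alternatives, among them scaling to the 75th percentile and leaving out any 1 of 6 of the 8 replicates. The other GINS subunits did not pass on polysomes: Gins2 gave −0.31 ± 0.11 (adjusted p = 0.0613), Gins4 −0.28 ± 0.10 (adjusted p = 0.0776) and Gins3 −0.16 ± 0.16. Without the polysomal arrays numbered 4, Gins2 passed, at −0.33 (adjusted p = 0.0139). Mcm10, which loads polymerase alpha, gave −0.26 ± 0.15 and Mcm8 0.02 ± 0.15, and neither passed.

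**Figure D2:**
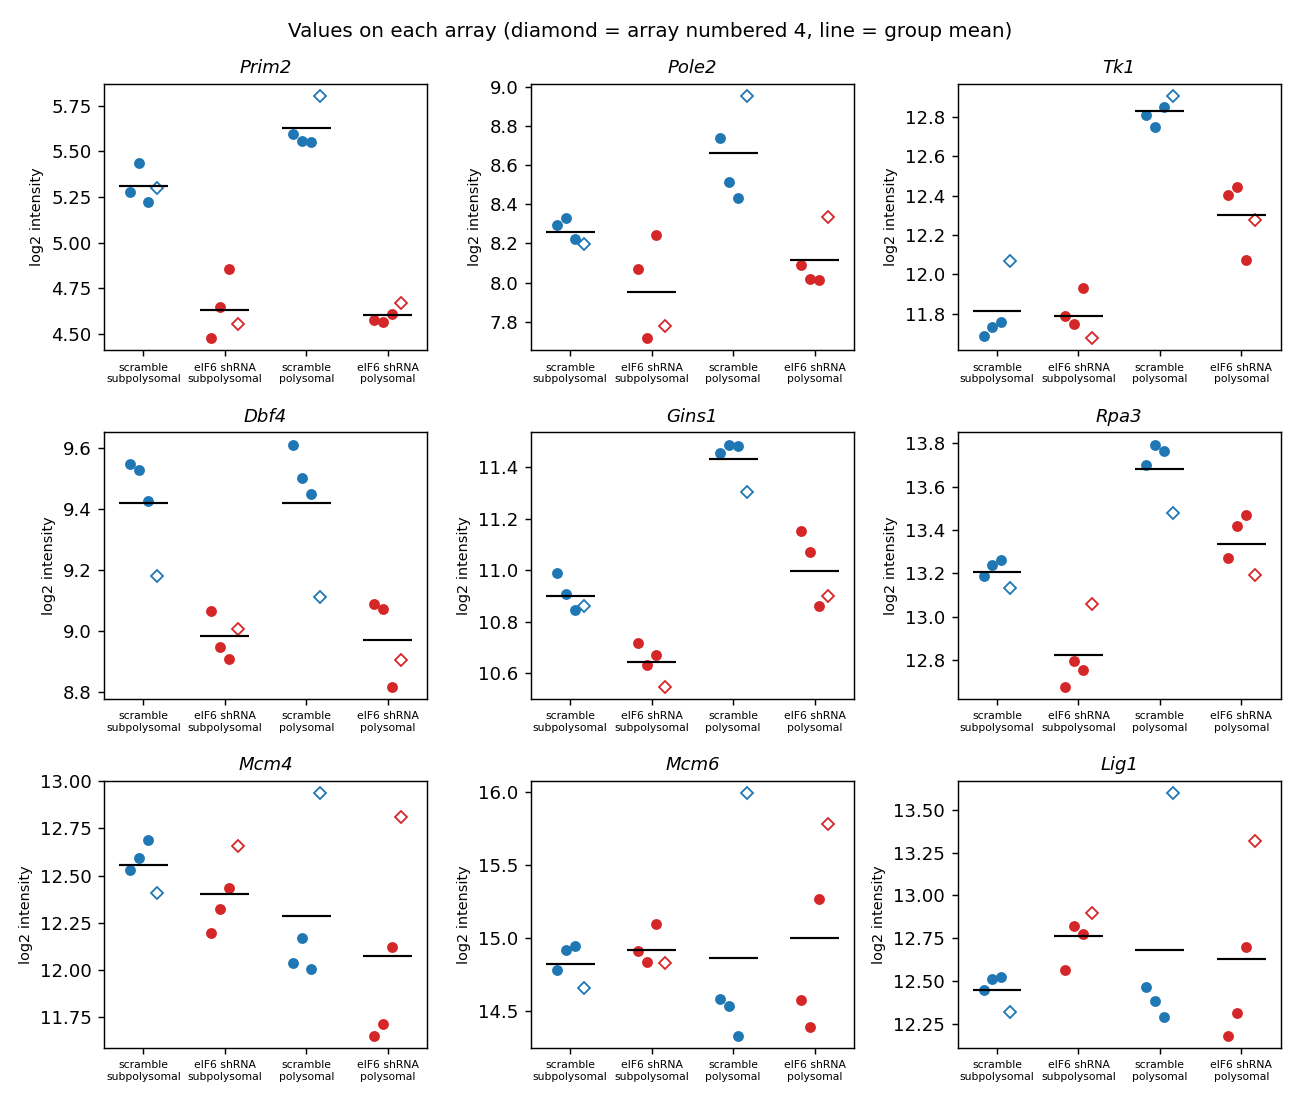
Normalised log2 intensity of 9 replication genes on each of the 16 arrays, by group, with circles for the arrays numbered 1 to 3, open diamonds for those numbered 4 and lines for group means. Prim2, Pole2, Tk1, Dbf4, Gins1 and Rpa3 are separated by shRNA on polysomes, while Mcm4, Mcm6 and Lig1 are high on the polysomal array numbered 4 of both shRNAs.

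Rpa3 and Tk1 completed the genes called lower on polysomes. Rpa3, the smallest subunit of the complex that coats single-stranded DNA, read 13.70, 13.79, 13.76 and 13.48 on the scramble polysomal arrays and 13.27, 13.42, 13.47 and 13.19 on the eIF6 shRNA ones, a change of −0.35 ± 0.10 (adjusted p = 0.0209) in which the groups nearly met. In subpolysomal RNA 13.19, 13.24, 13.26 and 13.13 stood against 12.68, 12.80, 12.76 and 13.06, a change of −0.38 ± 0.10 (adjusted p = 0.0117). Rpa2 had a change of the same size on polysomes, −0.35 ± 0.14, but its arrays, 9.40, 9.44, 9.67 and 9.75 against 9.50, 9.35, 8.88 and 9.14, overlapped and it did not pass (adjusted p = 0.108). In subpolysomal RNA Rpa2 read 8.10, 8.26, 8.18 and 8.65 against 8.21, 8.35, 8.29 and 8.15 and gave −0.05 ± 0.14. Fen1, which trims Okazaki fragments, gave −0.21 ± 0.11 on polysomes, and Lig1, which joins them, gave −0.06 ± 0.27.

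Tk1, the thymidine kinase of the salvage pathway, read 12.81, 12.75, 12.85 and 12.91 on the scramble polysomal arrays and 12.40, 12.44, 12.07 and 12.28 on the eIF6 shRNA ones. Its groups were well apart on polysomes, with a change of −0.53 ± 0.10 (1.44-fold lower; adjusted p = 0.00152). In subpolysomal RNA they overlapped, at 11.69, 11.73, 11.76 and 12.07 against 11.79, 11.75, 11.93 and 11.68, and the change was −0.02 ± 0.10 (adjusted p = 0.898). Both kept probes of Tk1 were lower on polysomes (−0.40 and −0.66), but differed in sign in subpolysomal RNA (0.23 and −0.28). Tyms, which makes thymidylate, read 7.52, 7.63, 7.48 and 7.61 against 7.23, 7.48, 7.10 and 7.40 on polysomes, and −0.26 ± 0.10 did not pass (adjusted p = 0.0696). Its subpolysomal arrays read 7.05, 7.18, 7.22 and 6.89 against 7.07, 6.95, 6.96 and 7.02, a difference of −0.09 ± 0.10. The subunits of ribonucleotide reductase, which makes deoxyribonucleotides, did not pass on polysomes: Rrm1 gave −0.25 ± 0.20 and Rrm2 −0.13 ± 0.19.

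The licensing genes, the clamp with its loader and the chromatin assembly factor held no gene called on polysomes. Of the 9 licensing genes, 5 lay below 0 on polysomes, with a range from −0.21 (Mcm4) to 0.14 (Mcm6). Mcm4 read 12.04, 12.17, 12.00 and 12.94 on the scramble polysomal arrays and 11.65, 11.71, 12.12 and 12.81 on the eIF6 shRNA ones, and its change was −0.21 ± 0.24. Mcm6 read 14.58, 14.53, 14.33 and 15.99 against 14.57, 14.39, 15.27 and 15.78, a change of 0.14 ± 0.33. In both genes the array numbered 4 was far above the others in scramble cells and the highest in eIF6 shRNA cells. There the third array of Mcm6, at 15.27, was also well above the first and the second. The spread within a group exceeded the difference between groups. In subpolysomal RNA the arrays lay closer: Mcm4 read 12.53, 12.59, 12.69 and 12.41 against 12.19, 12.32, 12.43 and 12.66, and Mcm6 14.78, 14.91, 14.95 and 14.66 against 14.91, 14.83, 15.10 and 14.82. Cdc6 gave 0.07 ± 0.19, Cdt1 0.06 ± 0.12 and Gmnn −0.14 ± 0.11 on polysomes.

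All 6 genes of the clamp and its loader lay below 0 on polysomes, between −0.24 and −0.07, and none passed. Pcna, the sliding clamp, read 14.21, 14.18, 13.99 and 14.57 on the scramble polysomal arrays and 13.85, 13.96, 13.98 and 14.36 on the eIF6 shRNA ones, which overlapped, with a change of −0.20 ± 0.13 (adjusted p = 0.338). Its subpolysomal arrays read 13.16, 13.31, 13.22 and 13.06 against 13.19, 13.03, 13.35 and 13.18, and its change there was −0.00 ± 0.13. Rfc3, a small subunit of the clamp loader, read 9.04, 9.01, 9.08 and 9.18 against 8.88 for the second eIF6 shRNA polysomal array, 8.70 for the third and the fourth and 9.07 for the first, a change of −0.24 ± 0.13 (adjusted p = 0.218). In subpolysomal RNA its arrays read 7.33, 7.52, 7.64 and 7.85 against 7.86, 7.73, 7.99 and 7.52. The chromatin assembly factor subunits gave −0.10 ± 0.14 (Chaf1a) and 0.25 ± 0.15 (Chaf1b) on polysomes, where Chaf1a read 11.24, 11.38, 11.50 and 11.75 against 11.20, 11.41, 11.48 and 11.36 and Chaf1b 9.79, 9.56, 9.56 and 9.82 against 9.91, 9.93, 9.90 and 9.99. Their subpolysomal arrays overlapped, at 11.55 to 12.16 against 11.46 to 11.81 for Chaf1a and 8.99 to 9.66 against 9.03 to 9.61 for Chaf1b. The value of Chaf1b rests in part on a dim probe that was above background on 4 arrays and changed by 0.62 on polysomes, whereas its bright probes changed by 0.10 and 0.02.

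In subpolysomal RNA 6 replication genes were called, in both directions, and all but Gins3 and Rfc4 among them were also called on polysomes. The median change was −0.06, beside 0.02 for all genes tested, and 30 of the 42 lay below 0. Dbf4, Gins1, Prim2 and Rpa3, which were also lower on polysomes, were the 4 called lower (9.52%), and Gins3 and Rfc4 were the 2 called higher (4.76%). Of all genes tested, 12.3% were called lower and 11.9% higher. Gins3, a GINS subunit, read 12.32, 12.18, 11.74 and 11.97 with the scramble and 12.87, 12.75, 12.54 and 12.43 with the eIF6 shRNA, without overlap, a 1.51-fold increase (0.60 ± 0.16, adjusted p = 0.0135). Rfc4 rose by 0.26 ± 0.08 (adjusted p = 0.0344), from 10.22, 10.43, 10.48 and 10.43 to 10.65, 10.58, 10.78 and 10.61, and its 2 probes gave 0.27 and 0.26, but the call held under 13 of 20 alternatives only. Within the 4 slides the median change was −0.13, −0.08, 0.01 and 0.01. With spike-in scaling none of the 6 was called and Rfc4 lay at −0.018, with 1.79% of all genes called lower and 0.212% higher.

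The fit takes 1 spread per gene over all 4 groups, so the polysomal arrays numbered 4 also widen the errors of the subpolysomal change. Without them, 6 replication genes were called lower and 3 higher in subpolysomal RNA, beside 16.1% lower and 15.7% higher of all genes. Mcm7 (−0.23 ± 0.07, adjusted p = 0.0345) and Pola1 (−0.46 ± 0.13, adjusted p = 0.0182) joined the genes called lower, and Lig1 (0.31 ± 0.11, adjusted p = 0.0476) those called higher. The subpolysomal arrays of all 3 genes did not overlap between the shRNAs, but those of Pola1 and Lig1 nearly met. The lowest scramble array of Pola1 read 9.547 and the highest eIF6 shRNA array 9.544. For Lig1 the highest scramble array read 12.526 and the lowest eIF6 shRNA array 12.566. Mcm7 read 14.61, 14.55, 14.67 and 14.54 with the scramble against 14.40, 14.30, 14.34 and 14.43 with the eIF6 shRNA.

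Translational efficiency, the polysomal change minus the subpolysomal change, was tested by the interaction of shRNA and fraction, and no replication gene passed. The median over the 42 genes was −0.12, beside 0.02 for all genes, and 27 lay below 0. By limma, 0 were called lower and 0 higher at an adjusted p of 0.05, and at an unadjusted p under 0.05 there were 5 lower and 1 higher, beside 7.36% and 5.14% of all genes. Of all genes tested, 1.1% were called lower and 0.403% higher at the adjusted threshold. Gins3 had the lowest value, −0.75 ± 0.23 (adjusted p = 0.135), and Pola1 the highest, 0.42 ± 0.24 (adjusted p = 0.528). Tk1 followed Gins3 at −0.51 ± 0.15 (adjusted p = 0.119), and next came Rfc3 at −0.43 ± 0.18, Lig1 at −0.37 ± 0.38 and Prim2 at −0.35 ± 0.13. The probes of Prim2 differed in sign in translational efficiency, at −0.74 and 0.04. For Gins3 the value came from higher subpolysomal signal, and for Tk1 from lower polysomal signal. Within the slides the median was −0.07, 0.21, −0.61 and −0.14.

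In scramble cells the replication mRNAs were spread widely over the gradient, and members of some complexes did not lie together. The polysomal minus subpolysomal difference is relative to the median gene, since quantile normalization gives both pools the same distribution. Its median was 0.25 for the 42 genes and 0.03 for all genes, with 7 genes called lower and 21 called higher on polysomes. Of all genes tested, 28.4% were called lower and 31.7% higher. Gins4 (1.61 ± 0.10), Rfc3 (1.49 ± 0.13), Rpa2 (1.27 ± 0.14), Pola2 (1.06 ± 0.20), Pcna (1.05 ± 0.13), Tk1 (1.02 ± 0.10) and Gins2 (1.01 ± 0.11) had differences above 1. Mcm7 had the lowest (−1.43 ± 0.21), before Pold1 (−0.98 ± 0.21), Cdt1 (−0.98 ± 0.12), Pola1 (−0.86 ± 0.17), Pold3 (−0.75 ± 0.07) and Gins3 (−0.64 ± 0.16). Within the GINS complex the range therefore ran from −0.64 for Gins3 to 1.61 for Gins4, and within the MCM helicase from −1.43 for Mcm7 to 0.04 for Mcm6, or from −1.68 to −0.35 for the same genes without the polysomal arrays numbered 4.

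In eIF6 shRNA cells the median difference was 0.11, beside 0.03 for all genes, with 7 replication genes called lower and 15 higher, and 28.7% and 32.1% of all genes. Gins4 again had the highest value (1.31 ± 0.10), and Gins3 the lowest (−1.39 ± 0.16). Without the polysomal arrays numbered 4, the counts of genes called lower on polysomes grew to 15 in scramble cells and 14 in eIF6 shRNA cells, with 21 and 16 called higher, while 29.9% and 30.4% of all genes were called lower and 32.5% and 33.4% higher. Mcm2 (−0.79), Mcm3 (−0.87), Mcm4 (−0.49) and Mcm5 (−0.46) were then called lower in scramble cells, where the fit of all arrays had called none of them. The direction of these differences depends on the scaling. With each fraction normalized on its own, the difference in scramble cells had a median of 1.79 for the replication genes and 1.38 for all genes, with 0 called lower and 41 called higher, and with spike-in scaling 1.89 and 1.52, with 0 and 38. With scaling to the 75th percentile the medians were 0.03 and −0.34, with 7 and 16 called. Of all genes, 4.64% were called lower and 81.5% higher under that separate normalization, 2.03% and 69.0% with spike-in scaling, and 43.7% and 21.2% with the 75th percentile. The replication genes thus had a higher median than all genes under each of these scalings.

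**Figure D3:**
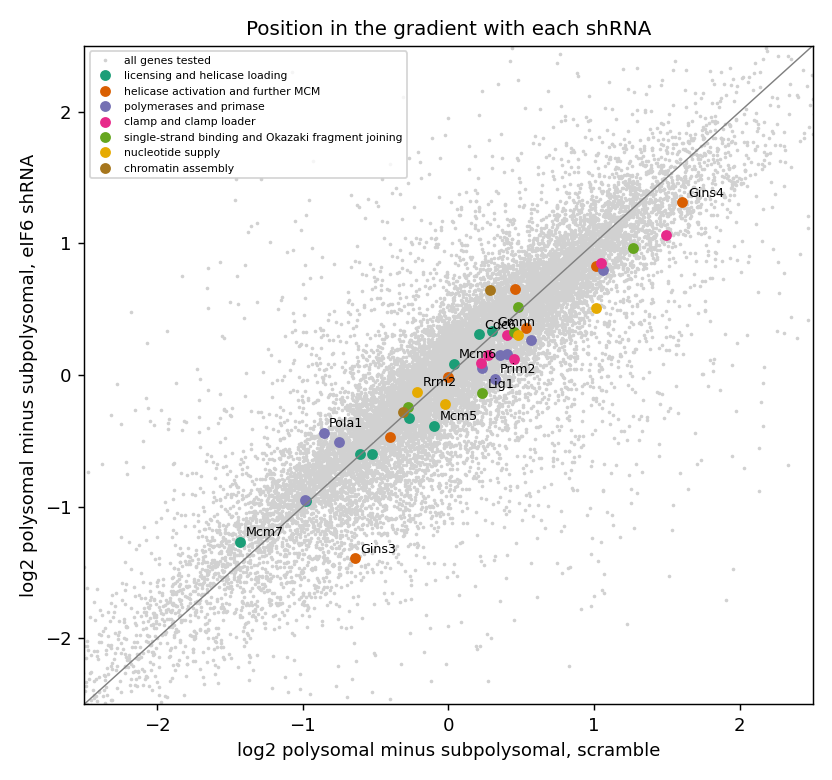
Log2 polysomal minus subpolysomal difference in scramble cells (horizontal) and eIF6 shRNA cells (vertical), for all 19367 genes tested (grey; genes beyond the axes are not drawn) and the 42 replication genes (coloured by role), with the line of equal values. Replication genes run from Mcm7, at −1.43 in scramble cells, to Gins4, at 1.61, and Gins3 lies farthest below the line.

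The polysomal arrays numbered 4 stood apart from the other polysomal arrays with both shRNAs. On the scramble polysomal array numbered 4, 14 of the 42 genes were more than 0.5 above the mean of the other 3 arrays (log2), on the eIF6 shRNA one 14, and 12 genes were so on both. Mcm6 was 1.51 above in scramble cells and 1.04 in eIF6 shRNA cells, Mcm5 1.45 and 0.89, Lig1 1.22 and 0.92, Mcm3 1.07 and 1.17, Mcm2 1.05 and 0.96, and Rpa1 0.94 and 0.88. Other genes went the opposite way, among them Gmnn, at −0.40 and −0.21, and Gins2, at −0.39 and −0.31. For comparison, the clustered histone genes had a median of −0.64 in scramble cells and −0.26 in eIF6 shRNA cells on these arrays, and all genes −0.03 and −0.03. The scramble array lay on slide 3 and the eIF6 shRNA array on slide 2, and whether the slide plays a part was not tested. On the subpolysomal arrays numbered 4, the genes ranged from −0.33 to 0.51 around the other 3 arrays in scramble cells, where 1, Chaf1a, was more than 0.5 above, and from −0.48 to 0.38 in eIF6 shRNA cells, where 0 were. Mcm6 was at −0.22 and −0.12 there, Mcm3 at −0.01 and 0.05, Mcm5 at 0.34 in scramble cells and Mcm4 at 0.34 in eIF6 shRNA cells.

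The departure of these arrays moved with the position of the probe in its transcript, which sets a lower limit on the length of the mRNA. For the 6 replication genes probed within the first 1000 bases the median departure was −0.22 in scramble cells and −0.20 in eIF6 shRNA cells, and for the 15 probed up to base 2000 it was 0.17 and 0.08. For the 12 probed up to base 3000 it was 0.62 and 0.57, and for the 9 probed beyond it was 0.71 and 0.68. Over all genes the same steps gave −0.15, −0.06, 0.01 and 0.09 in scramble cells and −0.15, −0.08, 0.01 and 0.11 in eIF6 shRNA cells. Single genes did not all follow the medians. Of the 12 genes in the step up to base 3000, 6 were more than 0.5 above on both arrays. Pold3, probed at base 2920, was at −0.105 and 0.156, and Tyms, at base 2900, at 0.071 and 0.133. Of the 9 genes probed beyond base 3000, 6 were more than 0.5 above with each shRNA, and 4 with both. Pole, probed at base 7031, was at 0.05 and −0.10. The third eIF6 shRNA polysomal array lay between the others for the same genes, with Mcm6 at 0.79, Rpa1 at 0.72 and Mcm5 at 0.62 above the mean of the first and the second. Whether the length of the mRNAs plays a part in the results was not tested.

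**Figure D4:**
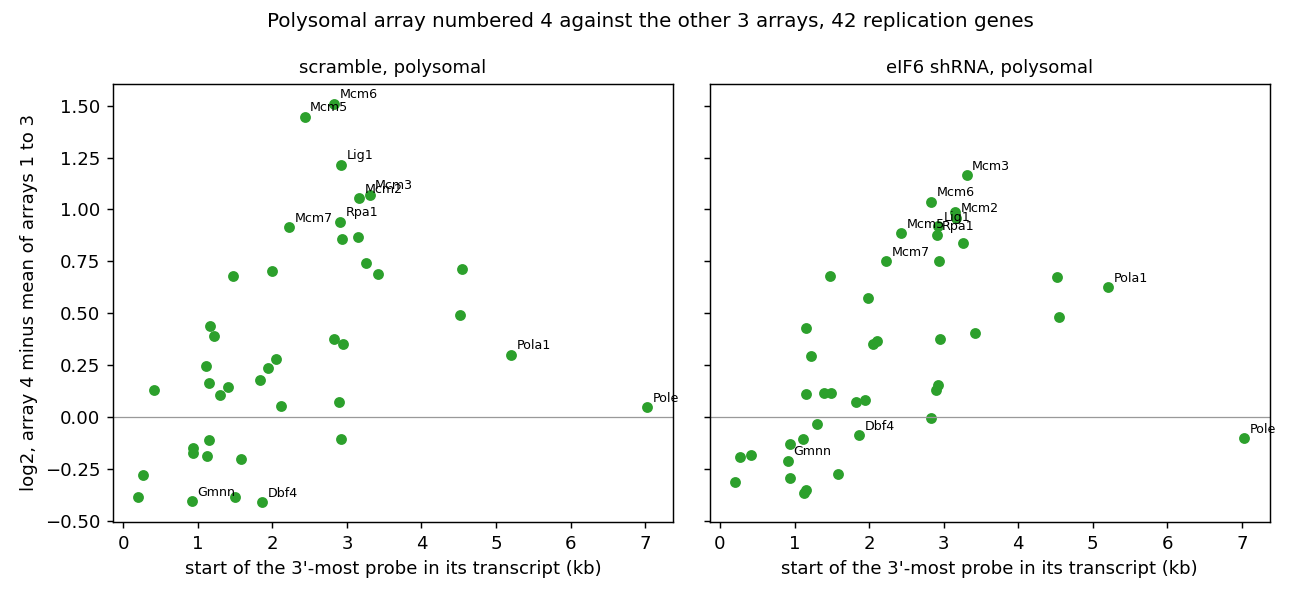
Log2 difference of the polysomal array numbered 4 from the mean of the other 3 polysomal arrays of the same shRNA, for the 42 replication genes, against the start of the 3′-most kept probe in its transcript (kb). In both panels genes probed within the first 1000 bases lie near or below 0, with medians of −0.22 and −0.20, and most MCM genes lie above 0.5.

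Other genes of the cell cycle were compared from lists chosen by function. Of 54 further replication, nucleotide and S phase genes tested, 12 were called lower and 0 higher on polysomes (median −0.18), and 14 lower and 0 higher in subpolysomal RNA (median −0.21). The largest polysomal decreases among those called were those of Asf1b, a histone chaperone (−0.70 ± 0.10, adjusted p = 8.64e-05), Dut, which removes dUTP (−0.69 ± 0.14, adjusted p = 0.00187), and Samhd1, a dNTP hydrolase (−0.64 ± 0.14, adjusted p = 0.00387). Of 20 E2F and G1/S regulators tested, 6 were called lower and 1 higher on polysomes (median −0.25). In subpolysomal RNA 7 of these regulators were called lower and 1 higher (median −0.305). The polysomal decreases were led by E2f6 (−0.83), E2f2 (−0.82) and Ccna2, the S phase cyclin A2 (−0.66). Cdkn1a, the cyclin-dependent kinase inhibitor p21, rose on polysomes by 0.50 ± 0.12 (adjusted p = 0.00564). Of 37 G2 and M phase genes tested, 8 were called lower and 0 higher in each fraction, with medians of −0.30 and −0.23, led on polysomes by Ube2c (−0.74), Cdc25b (−0.65) and Mad2l1 (−0.64). None of these 3 lists had a gene called in translational efficiency, where 1.1% of all genes tested were called lower and 0.403% higher. On polysomes 10.7% of all genes were called lower and 11.1% higher, and in subpolysomal RNA 12.3% and 11.9%.

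The clustered histone genes, read beside the replication genes as a measure of S phase, were called lower mostly in subpolysomal RNA. Of 47 tested, 5 were called lower and 4 higher on polysomes (median −0.16), 34 were called lower and 0 higher in subpolysomal RNA (median −0.69), and 0 lower and 9 higher in translational efficiency (median 0.48). Of all genes tested, 10.7% were called lower and 11.1% higher on polysomes. In subpolysomal RNA the shares were 12.3% and 11.9%, and in translational efficiency 1.1% and 0.403%. The median of the 42 replication genes was −0.16 on polysomes, −0.06 in subpolysomal RNA and −0.12 in translational efficiency. The polysomal median of the histone genes moved between −0.40 (without scramble replicate 4) and −0.01 (without scramble replicate 3), and within the slides it was −0.49, −0.35, 0.27 and −0.14. Among the histone genes called on polysomes, those with the largest decrease were Hist2h2bb (−1.49 ± 0.15), Hist1h1b (−0.67 ± 0.17) and Hist1h2bg (−0.54 ± 0.14), and those with the largest increase Hist1h2be (0.73 ± 0.12), Hist1h2bc (0.71 ± 0.14) and Hist2h3c2 (0.58 ± 0.14). Near-identical histone copies may share a probe's signal, so values of single histone genes are uncertain. The histone list was taken by gene name alone, and how well mRNAs without a poly(A) tail are measured on these arrays was not tested. In scramble cells the histone mRNAs lay towards the subpolysomal pool relative to the median gene, with a polysomal minus subpolysomal median of −0.70, against −0.12 in eIF6 shRNA cells. By slide this median was −0.31, −0.68, −1.28 and −0.42 in scramble cells and −0.19, −0.32, −0.09 and −0.18 in eIF6 shRNA cells. The scramble polysomal array numbered 4 lay on slide 3. Within the slides, the subpolysomal change of the histone genes had medians of −0.62, −0.61, −0.89 and −0.72.

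A score per array, the mean of the 42 replication genes after each was centred on its own mean over the 16 arrays, sums up the level of the replication mRNAs. In subpolysomal RNA it was −0.07, 0.00, −0.02 and 0.00 in scramble cells and −0.11, −0.12, −0.02 and −0.11 in eIF6 shRNA cells, so that the groups met at the third eIF6 shRNA array. On polysomes it was 0.09, 0.04, 0.04 and 0.40 in scramble cells and −0.15, −0.15, −0.04 and 0.19 in eIF6 shRNA cells, and the groups overlapped through the fourth eIF6 shRNA array. The score of 41 histone genes in subpolysomal RNA was between 0.42 and 0.58 in scramble cells and between −0.30 and −0.02 in eIF6 shRNA cells, with no overlap. On polysomes it ran from −0.63 to 0.27 and from −0.44 to −0.06, with array 4 the lowest of each group. On the arrays numbered 4 the replication score was thus the highest of its polysomal group, together with the score of 36 G2 and M phase genes (0.55 in scramble cells and 0.16 in eIF6 shRNA cells), and the histone score the lowest.

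**Figure D5:**
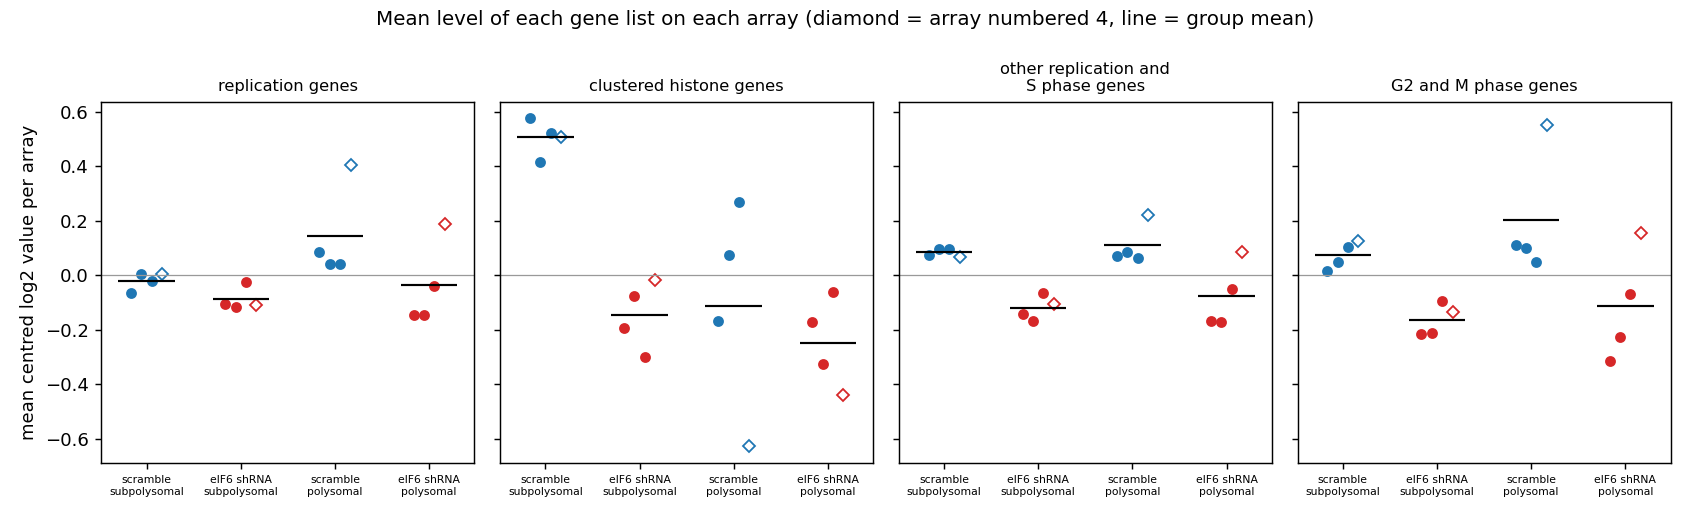
Mean centred log2 value per array of the 42 replication genes and of 3 comparison lists (clustered histone, other replication and S phase, and G2 and M phase genes), by group, with circles for the arrays numbered 1 to 3, open diamonds for those numbered 4 and lines for group means. Histone values separate the shRNAs in subpolysomal RNA, at 0.42 or above against −0.02 or below, and the polysomal diamonds are high for the replication genes and low for the histone genes.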

How the data were processed

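Per the file headers and the study's methods, each RNA was hybridized in 1 colour to an Agilent mouse array. The authors deposited the background-corrected intensity of each spot from Feature Extraction (version 10.7.7.1 in the submitters' processing notes, 10.7.3.1 in the file headers), not normalized between arrays, and a table of log2 values, quantile normalized, used here as an alternative. Array coordinates are mm9. Spots with an outlier or non-uniformity mark were removed (82 probe values on an array missing, and the genes concerned fitted without those arrays), spots of a probe were averaged, and probes read well above background by 2 or more arrays of any 1 group were kept (25262 of 39429, for 19367 genes). Their log2 intensities were quantile normalized over the 16 arrays and averaged per gene. The polysomal, subpolysomal and translational efficiency changes and the polysomal minus subpolysomal differences were contrasts of 4 group means in limma 3.58.1 (R 4.3.3), with Benjamini-Hochberg adjustment over all genes and a threshold of 0.05. The methods call the replicates biological. The procedure was tested on simulated data.

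The genes and lists were chosen with earlier results of these data known, so that no p is given for a list. Every replication gene is named. Values on every array are given, for each role, for the 2 genes with the largest absolute polysomal change. They are also given for some genes chosen after their values were seen: Gins3, Rfc4 and Mcm7. Of each comparison list, up to 3 called genes with the largest decrease and 3 with the largest increase on polysomes are named. The number of arrays limits the precision. Alternatives were scaling to 8 spike-in probes or to each array's 75th percentile, normalization of each fraction on its own or before the filter, normexp background correction (offset 50), 2 other filters, the brightest probe, the authors' table, the slide, the replicate number or (for translational efficiency) the culture as a block, and each replicate left out. Leaving out the polysomal arrays numbered 4 was an alternative chosen after seeing the data. Promoter sequences come from RefSeq. Figures were drawn with matplotlib 3.10.9.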

Additional observations from a re-analysis of the deposited data

Results flagged for a closer look

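The 4 arrays of each group were searched for 1 array far from the rest by Dixon's ratio of its gap to the group's range, for each of the 42 replication genes and for the scores, which made 188 groups. Chance alone picks out about 1 in 20 groups, and 16 were picked out, of which 13 were in scramble polysomal RNA. The groups share arrays and the scores average the genes, so they are not independent of one another. In eIF6 shRNA polysomal RNA the array numbered 4 was picked out as the highest in 0 groups. In 12 of the 13 scramble polysomal groups the array numbered 4 was the highest. Its values (log2 intensity) were 11.65 for Mcm2 (others 10.50 to 10.67), 12.17 for Mcm3 (11.05 to 11.15), 12.82 for Mcm5 (11.30 to 11.41), 15.99 for Mcm6 (14.33 to 14.58) and 13.85 for Mcm7 (12.85 to 13.01). They were 12.39 for Rpa1 (11.43 to 11.47), 13.60 for Lig1 (12.29 to 12.47), 12.39 for Rrm1 (11.45 to 11.59) and 10.97 for Rfc4 (10.79 to 10.81). The same array had the highest score of the replication genes (0.40), of the further replication and S phase genes (0.22) and of the G2 and M phase genes (0.55). For Gins1 it was the lowest, at 11.30 (others 11.46 to 11.49).

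In subpolysomal RNA the scramble array numbered 4 was high for Pold1, at 12.77 (others all at 12.54), the scramble array numbered 2 was low for Rfc5, at 12.91 (others 12.98 to 12.99), and the eIF6 shRNA array numbered 3 had a high replication score, at −0.023 (others −0.12 to −0.10).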

How the results depend on the processing

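Counts were recomputed under the alternatives that could be tested and medians also within each slide, where 1 array per group gives no test. A median was taken as moved when it differed by more than 1 SD of its 4 within-slide values. With spike-in scaling, which moved the median polysomal change of all genes to −0.48 and the subpolysomal one to −0.24, 1 replication gene was called lower on polysomes (Prim2), 0 lower and 0 higher in subpolysomal RNA, and their medians were −0.63 and −0.32. Rfc4, called higher in subpolysomal RNA, then lay at −0.018. With the brightest probe 1 gene was called higher in subpolysomal RNA. The polysomal minus subpolysomal median of the replication genes was 0.03 in scramble cells with the 75th percentile, 1.89 (scramble) and 1.64 (eIF6 shRNA) with spike-in scaling, and 1.79 and 1.71 with separate normalization of the 2 fractions. Within slide 2 the median polysomal change was 0.14 and the eIF6 shRNA difference 0.33. Within slide 3 the medians were −0.49 (polysomal), 0.009 (subpolysomal), −0.61 (translational efficiency), 0.45 (scramble difference) and −0.10 (eIF6 shRNA difference), and within slide 4 the subpolysomal median was 0.012. Slide 3 held the scramble polysomal array numbered 4 and slide 2 the eIF6 shRNA one. The cause of these moves was not tested.

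With 1 replicate of 1 shRNA left out, 5 to 10 genes were called lower and 0 higher on polysomes (median −0.25 to −0.06), 3 to 4 lower and 1 to 2 higher in subpolysomal RNA (median −0.08 to −0.04) and 0 in translational efficiency (median −0.22 to −0.03). The polysomal count was 5 without scramble replicate 1 or 2, 6 without scramble replicate 3 or eIF6 shRNA replicate 3, and the median was −0.06 without scramble replicate 4. The scramble difference had medians of 0.22 to 0.34 and the eIF6 shRNA difference 0.02 to 0.12. Prim2 stayed called on polysomes under all 20 alternatives fitted, Dbf4, Gins1 and Pole2 under 19, Tk1 under 18, Rpa3 under 15, Pold2 under 12, Pole under 11 and Prim1 under 7. In subpolysomal RNA Dbf4, Prim2 and Rpa3 stayed called under 19, Gins3 under 18, Rfc4 under 13 and Gins1 under 12.

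The replicate numbers were not taken to pair the arrays. The deviations of same-numbered arrays correlated at −0.21 to 0.41, the highest value being that of the polysomal arrays numbered 4 of both shRNAs, and an array was closest to its own number in 4 of 24 comparisons. With the replicate block, 1 gene, Gins3, was called lower in translational efficiency (adjusted p = 0.0424, against 0.135 without it), while with each culture as a replicate block 0 were called lower and 0 higher. The replicate block left 7 called lower and 0 higher on polysomes, 4 lower and 2 higher in subpolysomal RNA. The number of arrays and the dimness of Prim2 limit the precision of these values.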

Other observations

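Several replication genes have more than 1 kept probe (53 of 55 probes were kept, and 1 probe of Tk1 and 1 of Pole were above background on 0 arrays). Besides those of Prim2, Pole, Tk1 and Chaf1b, the probes of 4 genes differed in sign. The polysomal changes of the Cdc6 probes were 0.15 and −0.01 and those of the Mcm8 probes 0.04 and −0.00. In translational efficiency the Gmnn probes gave 0.12 and −0.05 and the Mcm3 probes −0.01 and 0.02. The second Gmnn probe, at chr13:24854006-24854065 of mm9, is annotated to the plus strand, and the first, at chr13:24843715-24843774, to the minus strand.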
